A study of Caenorhabditis elegans with 2 samples.

Results

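Of the 346 genes for small nucleolar RNAs (snoRNAs) that Ensembl annotates on the 6 nuclear chromosomes of Caenorhabditis elegans (assembly WBcel235, called ce11 by genome browsers), 163 do not lie wholly inside a protein-coding gene on their own strand. These host-free genes were defined by annotated type and position, a grouping chosen with earlier results of these data known. The other 183 snoRNA genes, each inside a same-strand host, served as the nearest comparison. The annotation holds 46890 genes in all. Of the 163, 124 were clear of protein-coding genes, 33 lay inside a gene on the opposite strand and 6 overlapped part of a gene.

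The data are lists of regions enriched by chromatin immunoprecipitation and sequencing (ChIP-seq). The protein precipitated was TRA-4, which has zinc fingers and is known for its part in sex determination. The animals were strain OP640, of genotype unc-119(tm4063) III; wgIs640, in which TRA-4 carries a C-terminal GFP-FLAG tag, and both samples therefore share the unc-119 mutation and the transgene. Whole early embryos of pooled sex, obtained by bleaching eggs out of adults, gave 2 biological replicates, precipitated with an antibody against GFP. There was 1 group and no second condition, and the control library was not analysed here.

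SnoRNAs guide enzymes to the bases of ribosomal and other RNAs that are to be modified: box C/D snoRNAs direct methylation of the ribose, and box H/ACA snoRNAs direct the change of uridine to pseudouridine. Many are cut out of the introns of a host gene and need no promoter of their own. A snoRNA gene without any host has to be transcribed from its own promoter. The label host-free used here excludes only protein-coding hosts on the same strand. Whether genes with this label lie inside a non-coding gene, and so may lack a promoter of their own, was not tested. RNA polymerase III reads tRNA genes through a pair of short sequences named box A and box B, which the factor TFIIIC binds, and stops at a run of T.

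The sequences before the starts come first, since they are what many host-free genes with a TRA-4 summit had in common. A summit is the base of highest enrichment that the authors' peak caller gave for a region. The final set of regions was selected by the irreproducible discovery rate (IDR), which keeps regions ranked alike in both replicates. Each line gives 80 bases before the annotated start and the first 20 bases of the gene, 5′ to 3′ on the gene's strand, read from the RefSeq copy of the WBcel235 genome. Capitals mark a pair of the box A and box B kind, defined in the paragraphs on sequence. Where matches tied, the first found was marked. At C27H5.9 another box A match begins at the final TGG of the marked box A. The first 7 genes are, in order of signal, those among the 15 strongest that hold the pair and may be shown by chromosome, and the next 2 are genes with strong summits and no pair before the start.
W03C9.9 (ce11 chrII:11960818-11960917, plus strand): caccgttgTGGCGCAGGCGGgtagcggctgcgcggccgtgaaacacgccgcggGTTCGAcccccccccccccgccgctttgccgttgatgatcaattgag
T06C12.16 (ce11 chrV:15873907-15874006, minus strand): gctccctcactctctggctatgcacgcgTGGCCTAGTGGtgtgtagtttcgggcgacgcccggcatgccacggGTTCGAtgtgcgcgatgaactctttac
T03F7.8 (ce11 chrV:11314178-11314277, plus strand): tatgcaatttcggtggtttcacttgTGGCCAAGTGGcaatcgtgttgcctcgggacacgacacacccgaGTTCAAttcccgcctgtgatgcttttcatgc
F32E10.10 (ce11 chrIV:7574042-7574141, plus strand): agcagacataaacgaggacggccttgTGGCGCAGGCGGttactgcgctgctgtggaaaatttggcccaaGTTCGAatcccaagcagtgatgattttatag
H09I01.2 (ce11 chrIV:8253014-8253113, plus strand): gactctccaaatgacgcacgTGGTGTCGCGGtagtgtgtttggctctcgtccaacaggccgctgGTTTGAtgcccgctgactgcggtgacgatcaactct
Y75B12B.12 (ce11 chrV:15191074-15191173, minus strand): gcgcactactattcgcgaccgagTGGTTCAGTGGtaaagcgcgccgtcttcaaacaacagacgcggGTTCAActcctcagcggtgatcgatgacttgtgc
C27H5.9 (ce11 chrII:7184059-7184158, minus strand): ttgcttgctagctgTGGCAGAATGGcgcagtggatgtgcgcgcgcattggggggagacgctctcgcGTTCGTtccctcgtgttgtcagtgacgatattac
C46C2.8 (ce11 chrIV:9191314-9191413, minus strand): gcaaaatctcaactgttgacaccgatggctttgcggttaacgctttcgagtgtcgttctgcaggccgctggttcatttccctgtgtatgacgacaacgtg
B0334.12 (ce11 chrII:11484603-11484702, plus strand): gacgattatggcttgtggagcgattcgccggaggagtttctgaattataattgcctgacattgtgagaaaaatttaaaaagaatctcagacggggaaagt
For comparison, H04D03.5 holds the pair but had no summit in the final set, and Y102A11A.16 holds no pair and stood, with its neighbour Y102A11A.17, highest among the genes that missed the final set.
H04D03.5 (ce11 chrIII:10432263-10432362, plus strand): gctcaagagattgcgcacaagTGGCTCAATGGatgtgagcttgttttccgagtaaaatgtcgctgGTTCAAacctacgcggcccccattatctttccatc
Y102A11A.16 (ce11 chrX:2046405-2046504, plus strand): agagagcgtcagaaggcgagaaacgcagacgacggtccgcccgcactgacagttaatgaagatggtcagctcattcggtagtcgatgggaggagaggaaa

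The genes themselves are short. The next lines give 3 genes to their annotated ends followed by 20 more bases, with capitals at the box C sequence TGATGA in the first 15 bases, at the box D sequence CTGA in the last 15, and at runs of 4 or more T in the 20 bases after the end. W03C9.9 carries both box C and box D, and all 3 are followed by runs of T.
W03C9.9 gene (ce11 chrII:11960898-11960979, plus strand): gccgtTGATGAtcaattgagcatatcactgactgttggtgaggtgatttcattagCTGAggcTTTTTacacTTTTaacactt
T06C12.16 gene (ce11 chrV:15873835-15873926, minus strand): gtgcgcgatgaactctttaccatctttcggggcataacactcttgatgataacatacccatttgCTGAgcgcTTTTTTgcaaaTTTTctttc
H09I01.2 gene (ce11 chrIV:8253094-8253185, plus strand): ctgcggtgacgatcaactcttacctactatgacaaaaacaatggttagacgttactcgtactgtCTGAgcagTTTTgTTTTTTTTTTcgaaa

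Among the 163 host-free snoRNA genes, 31 had a summit of the final set within 500 bp of the start. That is 19.0%, with an exact Clopper-Pearson 95% interval of 13.3% to 25.9%, beside 1.28% of all annotated genes. The same window held a final-set summit at 23 of the 183 hosted genes, or 12.6% (8.14% to 18.3%), so the intervals of host-free and hosted genes overlapped. At tRNA genes the share was 21.4%. The intervals cover counting error only, and neighbouring genes can share a region, so the 31 genes stood at 30 regions.

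Each replicate alone gave nearly the same count. The strongest regions of a replicate were taken in the number that the final set has. Among those of replicate 1, 28 host-free genes had a summit (17.2%, interval 11.7% to 23.9%), beside 1.16% of all genes. Among those of replicate 2 the number was 30 (18.4%, interval 12.8% to 25.2%), beside 1.24% of all genes. All 31 genes of the final set had a summit in the whole list of both replicates, and 27 were among the strongest regions of both, counted in this way. The final set was called from these same replicates, so this overlap is no separate support.

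The longer lists hold many weak regions. In the relaxed list of the pooled replicates, with 9660 regions, 68 host-free genes had a summit (41.7%, interval 34.1% to 49.7%), beside 10.6% of all genes and 30.6% of hosted snoRNA genes. In the whole list of replicate 1 the number was 83 (50.9%), beside 18.6% of all genes, and in that of replicate 2 it was 74 (45.4%), beside 13.6%. Of the 132 genes without a final-set summit, 37 had a pooled summit, 5 had a summit in both replicates but not in the pooled list, 14 in replicate 1 only and 5 in replicate 2 only. The remaining 71 had none in any list.

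**Figure D1:**
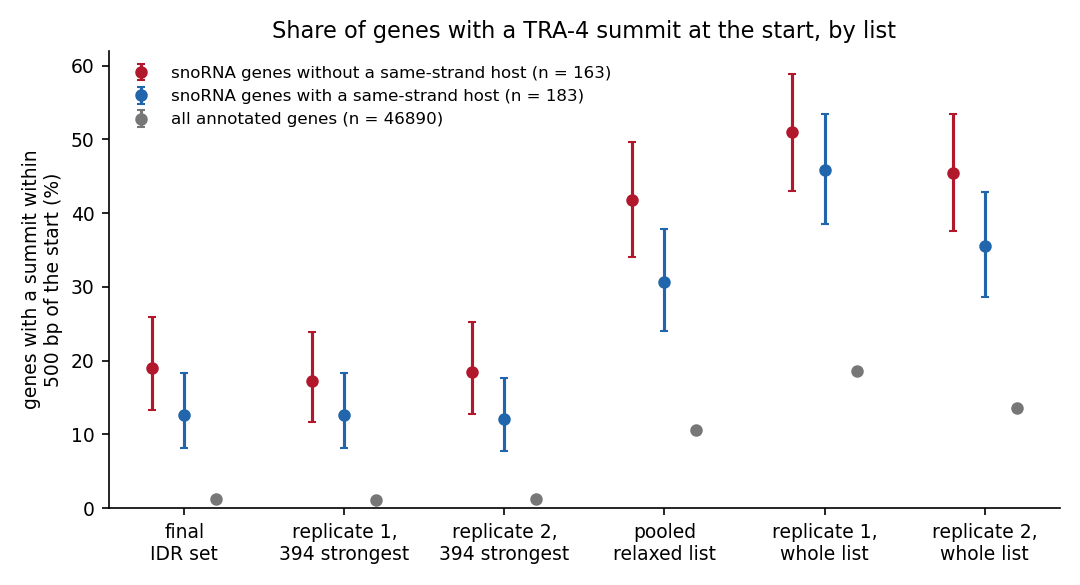
The plot gives the percentage of genes with a summit within 500 bp of the start in 6 lists, for host-free snoRNA genes, hosted snoRNA genes and all annotated genes, with points for the share and bars for the exact 95% interval. Host-free genes stood above all genes in each list, at 19.0% against 1.28% in the final set, and their intervals overlapped those of hosted genes in each list.

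The strongest region at a host-free gene was that of W03C9.9, a gene of 62 bases on chromosome II from 11960898 to 11960959 (plus strand). The region, from 11960697 to 11960976, was near the top of the pooled list, and its summit lay at -71 bp from the start. Its signal was 558.7 in the pooled list (rank 2), 236.8 in replicate 1 (rank 2) and 320.6 in replicate 2 (rank 3). The signal is the authors' enrichment value and its scale differs between lists, so ranks within a list are the comparable quantity.

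The next 3 genes were equally near the top of each list. T06C12.16 on chromosome V had pooled rank 6, with a signal of 190.9 (rank 4) in replicate 1 and 242.7 (rank 8) in replicate 2. ZK265.10 on chromosome I had pooled rank 7, with 153.5 (rank 9) and 270.2 (rank 6). T03F7.8, which lies inside the opposite-strand gene cutl-18, had pooled rank 11, with 143.8 (rank 12) and 222.1 (rank 10). All of these ranks were within the first 12 regions of their list.

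The other genes among the 15 strongest had pooled ranks from 12 to 60. They were T02E1.9 (rank 12), T27A3.9 (15), F32E10.10 (19), B0334.12 (27), H09I01.2 (33), C46C2.8 (41), ZK484.9 (49), Y75B12B.12 (50), Y23H5B.10 (60) and the pair C27H5.9 and C27H5.10 (59), which share a region. In replicate 1 their ranks lay between 8 and 78, and in replicate 2 between 12 and 70, so both replicates placed all of them in the first 100 of their lists. At the shared region the summit was at -44 bp from the start of C27H5.9 and at 370 bp from that of C27H5.10, beyond its end, and both genes sit inside pdl-1 on the opposite strand.

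Over the 31 genes, the median pooled rank was 68 (range 2 to 357), 20 had rank 100 or better and 12 had rank 50 or better. For the 23 hosted genes the median was 122 (range 3 to 354). The median rank was 74 in replicate 1 and 62 in replicate 2, against 92 and 114 for the hosted genes, and the ranges overlapped throughout. Across the 30 regions, the signals of the replicates had a Spearman rho of 0.926, a description over regions that share the same pair of libraries. The final set was called from these same replicates, so the rho is no separate measure of their agreement.

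A few genes were ranked unlike in the replicates. T26A8.6 had rank 2032 (signal 29.4) in replicate 1 and rank 251 (signal 75.8) in replicate 2. Y53F4B.48 went the other way, with rank 127 (signal 66.5) in replicate 1 and rank 1017 (signal 49.7) in replicate 2. ZK20.9 had rank 1343 (signal 32.4) in replicate 1 and rank 357 (signal 68.0) in replicate 2. These 3 regions were in the weaker part of the final set, with pooled ranks of 324, 261 and 357. Together with F30H5.4, of rank 401 in replicate 1, they were the 4 genes outside these strongest regions in 1 replicate.

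**Figure D2:**
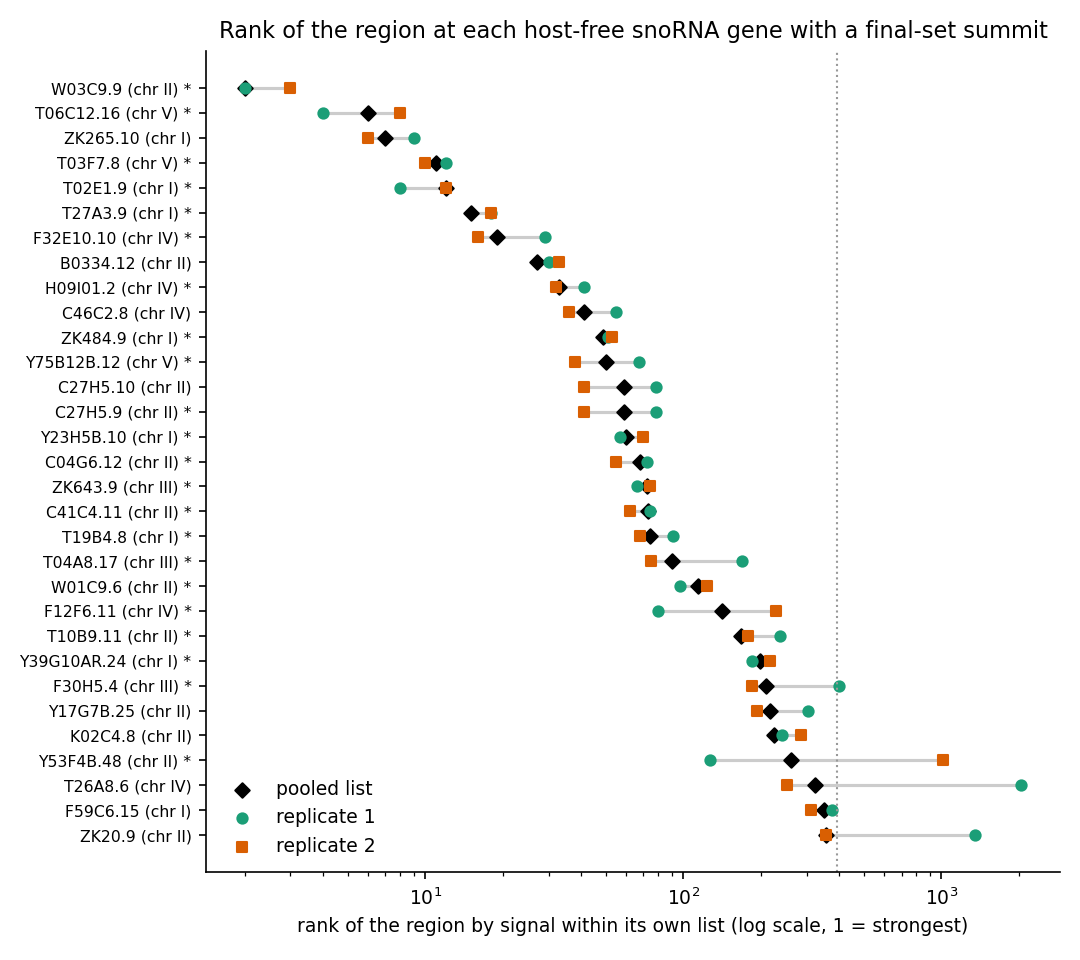
For each host-free gene with a final-set summit, the plot gives the rank of its region in the pooled list, replicate 1 and replicate 2 on a log scale, where 1 is the strongest region, and an asterisk marks a box pair before the start. The ranks lie close together for most genes and far apart for Y53F4B.48, T26A8.6 and ZK20.9, and the dotted line stands at the number of regions in the final set.

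The 37 genes with a pooled but no final-set summit had pooled ranks from 403 to 9456, with a median of 2124, and 29 of them had a summit in both replicates. Their best rank was 566 in replicate 1 and 397 in replicate 2, so in a single replicate some stood above the weakest genes of the final set. The strongest was the region shared by Y102A11A.16 and Y102A11A.17 on the X chromosome, with a pooled signal of 101.2 and ranks of 2001 and 397 in replicates 1 and 2. H04D03.5 (pooled rank 793), W03B1.17 (820) and C53B7.8 (846) followed. Their q-values were 0.128, 0.135 and 0.141, and only the 2 genes at rank 403 had a q-value under 0.05.

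Summits lay just before the snoRNA. In the final set, 31 summits were within 500 bp of a host-free start, 1 more than the regions counted per gene, because a gene was credited with its strongest region only. Their median position was -51 bp (quartiles -64 and -35.5), where negative means before the start. Of the 31, 28 (90.3%) lay before the start and 27 within 100 bp of it. At hosted genes the median was -43 bp with 17 of 23 summits before the start, and at tRNA genes it was 18.5 bp, inside the gene.

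The replicates differed in this measure. In replicate 2 the median over its 30 summits was -51.5 bp, with 28 before the start. In replicate 1 it was -21.5 bp, with 19 of 30 before the start. Single genes show the shift: the summit of F32E10.10 lay at -51 bp in replicate 2 and at 16 bp in replicate 1, and that of H09I01.2 at -52 bp and 30 bp. For T03F7.8 the order was opposite, at -20 bp in replicate 2 and -58 bp in replicate 1. The regions themselves have different usual widths, 500 bp in replicate 1 and 470 bp in replicate 2, and the part of this in the positions was not tested.

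**Figure D3:**
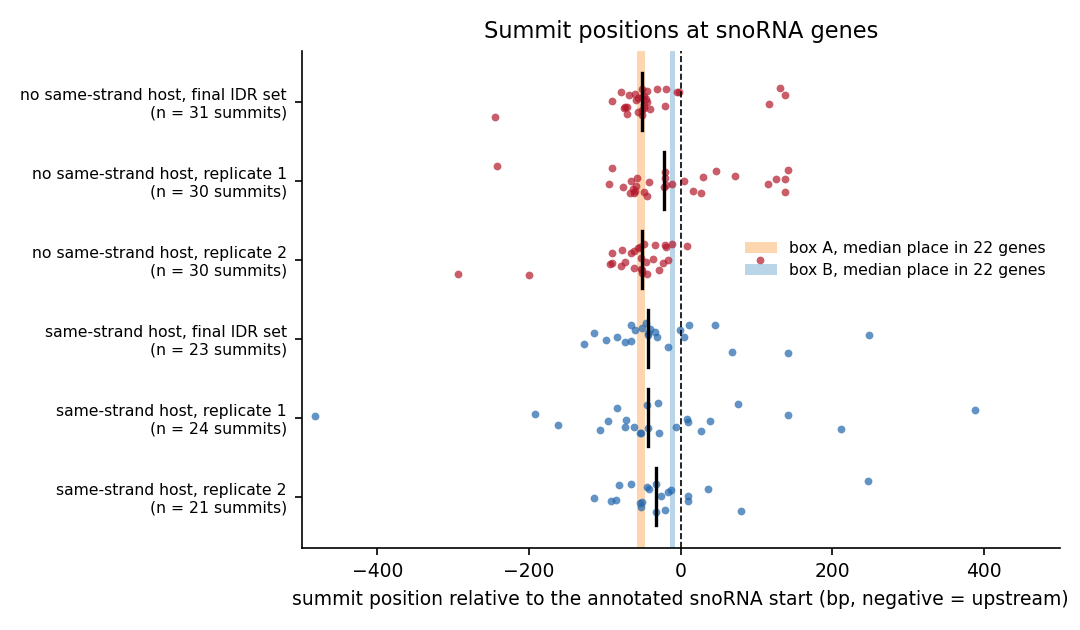
Each point is a summit at its position in bp relative to the nearest snoRNA start, for host-free and hosted genes in the final set and among the equally many strongest regions of each replicate, and black lines are medians. Shaded bands show the median places of box A and box B in 22 host-free genes. The host-free summits centre at -51 bp in the final set and -51.5 bp in replicate 2, and at -21.5 bp in replicate 1.

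Host-free genes with a summit were mostly short. Divided into 5 length classes, the shortest genes, of 62 to 83 bases, had the highest share: 19 of 32 (59.4%) had a final-set summit. In the next classes, from 84 to 125, 125 to 152, 153 to 181 and 183 to 344 bases, the numbers were 3 of 33, 7 of 32, 1 of 33 and 1 of 33. Box C/D snoRNAs are usually shorter than H/ACA snoRNAs, and the 31 genes had a median length of 75 bases.

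Length in turn went with the number of the WormBase gene record. Of the 52 genes with a WormBase identifier number below 100000, 28 (53.8%) had a final-set summit, whereas of the 111 with a higher number 3 (2.70%) had one, namely Y17G7B.25, T26A8.6 and ZK20.9. Median lengths were 77 and 157 bases. Within the lower-numbered genes, 19 of the 31 in the shortest class (61.3%, interval 42.2% to 78.2%) and 9 of the 21 longer ones (42.9%, interval 21.8% to 65.98%) had a summit, so the intervals overlapped. Among the longer genes, 3 of the 110 with a higher number had one (2.73%, interval 0.566% to 7.76%), below the interval of the lower-numbered genes. The shortest class holds only 1 higher-numbered gene, so the records cannot be compared there. Both splits were chosen with the summits known, and the same holds for the splits by box pair below.

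The classical boxes of the snoRNAs were counted by exact letters, which misses genes with variant boxes. TGATGA stood in the first 15 bases of 9 genes, of which 4 had a final-set summit, against 27 of the 154 others. CTGA stood in the last 15 bases of 38, of which 15 had one, against 16 of 125. ACA stood 3 bases before the end of 13 genes, of which 6 had one, against 25 of 150. C46C2.8, of 73 bases and with a summit, was counted under both CTGA and ACA. So was C53B7.8, of 71 bases and without a final-set summit, so the letters leave the class of both unclear. Genes of both snoRNA classes, as far as these letters show them, were thus among those with a summit. ZK643.9, with ACA at its end, 131 bases and pooled rank 72, was the strongest host-free gene of chromosome III.

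A run of TTTT within 20 bases after the gene, the kind of sequence at which RNA polymerase III stops, was found at 67 host-free genes, of which 21 (31.3%) had a final-set summit. Of the 96 genes without it 10 (10.4%) had one. At hosted genes the numbers were 20 of 78 with the run and 3 of 105 without it. Such runs are common in a genome rich in A and T.

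Letters of the tRNA promoter boxes were searched from 250 bp before to 50 bp after the start on both strands. The box B core GTTCGANNC occurred at 8 of the 31 genes with a summit, 4 of the 132 without and 2.51% of all genes. The box A core, written as TGG, 3 bases of any kind and AGTGG, occurred at 10 of the 31, 4 of the 132 and 1.31% of all genes. The 2 cores were counted separately, so the same gene can be in both counts. At hosted genes the box B core occurred at 10 of 23 with a summit and 5 of 160 without, and the box A core at 6 of 23 and 5 of 160.

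The other letters searched in that window had a different distribution. TATAAA occurred at 8 of the 31 and 40 of the 132, or 25.8% and 30.3%, beside 37.4% of all genes. GAGAG occurred at 22 of the 31 (71.0%) and 60 of the 132 (45.5%), beside 33.9% of all genes. At hosted genes GAGAG occurred at 11 of 23 with a summit and 72 of 160 without, or 47.8% and 45%.

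The box A and box B letters were also searched as an ordered pair, box A before box B, on the gene's own strand. The reverse order and the other strand were not searched here, so order and strand are part of the definition. Box A was taken as TGG, 3 bases of any kind, A, 2 or 3 more of any kind and GG, and box B as GTTCGA, with up to 1 mismatch in each, 24 to 44 bases between them, from 100 bp before to 10 bp after the start. This definition was chosen after reading the sequences of genes with summits, so its counts are a description. Of the 163 genes, 32 (19.6%) held such a pair, beside 1.46% of all genes. Of the 32, 22 (68.8%, interval 49.99% to 83.9%) had a final-set summit and 27 a pooled one, whereas of the 131 without a pair 9 (6.87%, interval 3.19% to 12.6%) had a final-set summit.

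A stricter pair allowed no mismatch, with box A as TGG, 3 of any kind, A, 1 of any kind and TGG, and box B as GTTCNA. It stood at 11 host-free genes, of which 9 had a final-set summit, and at 10 of the 46544 genes that are no snoRNA gene, of which 2 had one. A further 9 definitions were looked at with the summits known. They are variants of the same letters and give no separate support. Under them the pair was held by 6 to 33 host-free genes. Of these, 63.6% to 83.3% had a final-set summit, against 7.69% to 16.6% of the genes without it. Hosted genes had the pair too: 29 of 183, of which 15 had a final-set summit, against 8 of 154 without it. Among the 46544 genes that are no snoRNA gene, 623 held the relaxed pair and 10 of these (1.61%) had a final-set summit, near the 1.17% of those without it. This window ends 10 bp after the start, so it can miss boxes inside a gene, where those of tRNA genes lie. A search around the summits, given below, found the pair at 114 of 122 final-set summits near a tRNA start.

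The search window and the gap limit where the pair can stand. In the 22 host-free genes with both pair and summit, box A began at a median of -58 bp (range -72 to -46) and box B at -13.5 bp (range -27 to -5). Over all 32 genes with the pair, box A began between -94 and -41 bp, with a median of -57.5 bp. In the 22, a median of 7.5 bases separated box B from the snoRNA. The final-set summit was a median of -1.5 bp from the middle of box A (range -36 to 51.5), and in 14 of the 22 it lay between the first base of box A and the last of box B. This distance depended on the replicate: the median was -1 bp in replicate 2 (range -41 to 60), with 14 between the boxes, and 15.75 bp in replicate 1 (range -51 to 122), with 8. In the printed windows the layout varies. At W03C9.9 box A begins at -72 bp and the summit is at -71 bp, and at T06C12.16 they are at -52 and -51 bp. At T03F7.8 they are at -55 and -20 bp. At Y75B12B.12 box A begins at -57 bp and box B at -14 bp, and the summit, at -5 bp, lies beyond both.

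Pair, length and the run of T overlapped in part. In the shortest length class, 15 of 16 genes with the pair had a final-set summit and 4 of 16 without it did. In the longer classes the numbers were 7 of 16 with the pair and 5 of 115 without. Genes with the pair had a summit at 19 of 24 when a run of T followed and at 3 of 8 when none did, and genes without the pair at 2 of 43 and 7 of 88. Among lower-numbered records, 22 of 25 with the pair and 6 of 27 without it had a final-set summit, and all 25 had a pooled summit. The 7 higher-numbered genes with the pair had none in the final set, which allows a share of up to 42.9%, and 2 of them had a pooled summit.

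**Figure D4:**
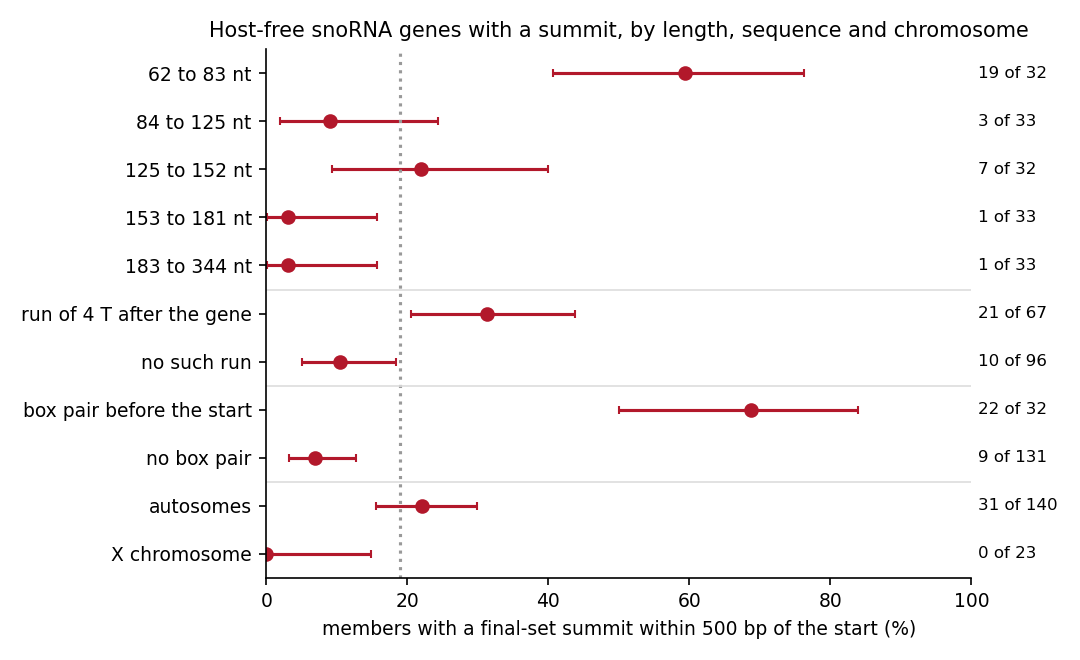
The plot gives the percentage of host-free snoRNA genes with a final-set summit by length, by a run of T after the gene, by box pair and by chromosome, with exact 95% intervals and the counts at the right, and the dotted line stands at the 19.0% of all 163. The highest shares are those of genes with the box pair (22 of 32) and of the shortest genes (19 of 32). The X chromosome has 0 of 23, and the share of all annotated genes on X is not given.

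The 9 genes with a summit and no pair at the defined place were ZK265.10, B0334.12, C46C2.8, C27H5.10, Y17G7B.25, K02C4.8, T26A8.6, F59C6.15 and ZK20.9. Their median pooled rank was 217 (range 7 to 357), against 64 (range 2 to 261) for the 22 with the pair. For 4 of them, B0334.12, C27H5.10, Y17G7B.25 and K02C4.8, a relaxed pair lay on either strand within 100 bp of the summit. At B0334.12, inside twk-5 on the opposite strand, the summit lay 116 bp beyond the start and thus after the gene's end. The region of C27H5.10 is the one that C27H5.9 shares.

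Searched around summits on both strands, the relaxed pair lay within 100 bp of 25 of the 31 final-set summits at host-free genes (80.6%) and of 15 of 23 at hosted genes. At summits near a tRNA start, where the boxes lie inside the gene, it was 114 of 122 (93.4%). Of the other 218 final-set summits 34 had it (15.6%), and of the 9266 pooled summits outside the final set 1319 (14.2%). At the 46 weaker pooled summits near a host-free snoRNA start it was 4 (8.70%).

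By chromosome, the final set held summits at 8 of 38 host-free genes on I, 12 of 36 on II, 3 of 16 on III, 5 of 31 on IV and 3 of 19 on V. On the X chromosome there was none among 23, a count that allows up to 13.0%, while the autosomes together had 31 of 140 (22.1%, interval 15.6% to 29.9%). The 10 hosted genes on X had none either, which allows up to 30.0%. In the pooled list 5 of the 23 genes on X had a summit, against 63 of 140 on the autosomes. Only 3 of the X genes were lower-numbered records, and the part of the record in the difference was not tested. Over all chromosomes, 1.28% of annotated genes had a final-set summit, and the shares for X and autosomes apart are not given here. Whether the difference is particular to snoRNA genes was therefore not tested. ZK265.10, W03C9.9, ZK643.9, F32E10.10, T06C12.16 and Y102A11A.16 had the strongest summit on I, II, III, IV, V and X.

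By setting, 21 of the 124 genes clear of protein-coding genes had a final-set summit (16.9%), as did 7 of the 33 inside an opposite-strand gene (21.2%) and 3 of the 6 that overlap part of one. ChIP-seq regions carry no strand, so a summit inside an opposite-strand gene could belong to either. Of the 30 regions, 14 had no other annotated start within 500 bp of the summit, 6 had the start of a protein-coding gene and 12 that of a non-coding RNA gene. None had a tRNA, snRNA, miRNA or hosted snoRNA start, although 122 regions of the final set had a tRNA start. The bases around the summits were mostly unique: in 29 of the 30 regions every stretch of 36 bases within 50 bp of the summit occurs once in the genome, and at F59C6.15 39 of 66 do.

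The proteins that work with snoRNAs were counted in the same way. Of 8 genes for core proteins of the snoRNA particles, 1 had a final-set summit, beside 0.981% of protein-coding genes. It was Y48A6B.3, whose product belongs by homology to the H/ACA particle, with a region on chromosome III from 11007645 to 11008124 of pooled rank 291 (rank 472 in replicate 1 and 329 in replicate 2). That summit lay at -337 bp from the start and was also near the start of fipr-17. In the pooled list 5 of the 8 had a summit, beside 12.3% of protein-coding genes. They include fib-1, the fibrillarin methyltransferase (pooled rank 753), nol-58, a C/D core protein (1274), snu-13, which binds the C/D fold (1169), and dkc-1, the dyskerin pseudouridine synthase (2355). These 4 are weak regions, ranked beyond the 535 of the pooled list with a q-value under 0.05. The summit at fib-1 had rank 266 in replicate 1 and 7106 in replicate 2, and dkc-1, with its summit at -482 bp, had none in replicate 2.

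None of 4 genes for assembly and nucleolar helpers (ruvb-1, ruvb-2, dao-5 and ncl-1) had a final-set or pooled summit, a count that allows a share of up to 75%. Of 12 genes for factors of small RNA promoters, among them the TFIIIC subunits tftc-1, tftc-3 and tftc-5, the TFIIIB subunit brf-1 and the snRNA activator snpc-4, none had one either. A count of 0 of 12 allows a share of up to 25%, so a share like that of all genes was not detectable as different.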

How the data were processed

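TRA-4-GFP was measured by ChIP-seq in 2 replicates of 1 group, called biological by the labels, and any spread between them may be partly technical. The authors deposited narrowPeak region lists in ce11, with an enrichment signal and a −log10 q-value per region: a final IDR list, a relaxed list of pooled replicates, and a relaxed list per replicate. The caller, aligner and IDR threshold: not given in the sources used here. The lists hold no read counts, so depth is unknown. Lists in an older build were not used.

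Ensembl release 115 genes on 6 chromosomes were used, and sequence came from RefSeq's WBcel235. A gene had a summit if one lay within 500 bp of its start, and it was credited with the strongest. Intervals are exact 95% binomial, and a count of 0 is given with a limit of 3 counts. Python 3.11.15, numpy 2.4.6, pandas 2.3.3, scipy 1.17.1 and matplotlib 3.10.9 were used, and the counting was checked on simulated summits and planted boxes. With 1 condition no test between groups was made.

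Members, gene lists and splits were chosen with earlier results of these data known. Named genes were the 15 strongest with a final-set summit, the 5 strongest without one, the 3 most unlike in rank between replicates and the strongest of each chromosome. Further genes named among 9 or fewer were chosen after their values were seen. Alternatives were the window (200 and 1000 bp), the host rule, overlap in place of summits, only the upper part of a list by signal, q-values under 0.05, loci in place of genes, and each replicate alone. Leaving out the shortest of 5 length classes was added after seeing the data.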

Additional observations from a re-analysis of the deposited data

How the results depend on the processing

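Of 35 alternatives, 31 stayed within the interval or spread of the value reported, 4 moved outside it and 0 reversed. The share of host-free snoRNA genes with a final-set summit (19.0%) was 9.16% without the shortest of 5 length classes, an alternative chosen after seeing the data, since 19 of the 31 genes are in that class. The pooled-list share (41.7%) was 30.7% with a window of 200 bp and 20.2% with regions of q-value under 0.05, both of which admit fewer summits. The median summit position (-51 bp) ranged from -51.5 bp without replicate 1 to -21.5 bp without replicate 2; the cause was not tested. With 1 replicate left out, where the strongest regions of the other take the place of the final set, the share was 17.2% to 18.4%. The final-set share was 14.1% with the upper part of the final set by signal and 18.5% over 162 loci. Read depth is unknown, so regions near the limits of the lists cannot be given a counting error. No paired analysis was possible because there was 1 group.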
